A study of Mus musculus castaneus and Mus musculus domesticus with 13 samples.

Results

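The comparison was between 4 CASP/1Nga (CASP) and 4 CAST/Ei (CAST) ntESC lines, which together make up 8 of the 13 RNA-seq libraries of the study. The lines were chosen by the strain and cell type in the sample labels, CASP #M3, #M5, #F4 and #F6 against CAST #M2, #M8, #F1 and #F2, where M marks a male and F a female line. Both strains are wild-derived and belong to the subspecies Mus musculus castaneus. The study derived ntESC lines from such strains by nuclear transfer of a peripheral blood leukocyte, taken from a living mouse, into an enucleated oocyte. All 8 lines shared the recipient oocyte (B6D2F1, a hybrid of the laboratory strains C57BL/6 and DBA/2), the 2i/LIF culture medium and a feeder layer of C57BL/6 fibroblasts, so their mitochondria are of laboratory-mouse origin. No line carried a transgene, and no treatment set lines apart. All reconstructed embryos were activated with strontium chloride and kept for some hours in trichostatin A, a histone deacetylase inhibitor, and latrunculin A. Each line goes back to 1 reconstructed embryo and was sequenced once, and the lines had been picked for a normal chromosome number. How many donor mice a strain had is not given in the sources used here, so strain and donor animal cannot be fully told apart. Thus n = 4 a strain counts lines, and p-values measure the spread between lines. The 2 B6D2F1 ntESC lines, #M3 and #F2, made the same way, are given beside the 8 lines and share in the estimate of that spread.

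ntESCs are embryonic stem cells (ESCs) whose genome comes from a somatic nucleus that the oocyte has reset to an embryonic state. In mouse ESCs the transcription factors Oct3/4, Sox2 and Nanog hold the undifferentiated state, LIF acts through STAT3 to support it, and the 2 inhibitors of 2i medium block the FGF-MAPK pathway and GSK3, which restrains Wnt signaling. Strains of one subspecies differ in DNA sequence, including the regulatory sequence beside genes and the copies of genes they carry.

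Every level below is in CPM, the deposited counts scaled to a common library size and by a composition factor (TMM). Where 4 values are given for a strain, they stand in the order #M3, #M5, #F4, #F6 for CASP and #M2, #M8, #F1, #F2 for CAST, and means carry an SD over 4 lines. Fold changes are on the log2 scale, CASP minus CAST, with a standard error (SE). The test was edgeR's quasi-likelihood F test, with a term for sex and p-values adjusted over all genes, and 0.05 was the threshold. A gene past it is called higher or lower, as seen from CASP. In bulk RNA, fewer cells that express a gene and less RNA per cell cannot be told apart.

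The 8 libraries held 33395162 to 45690960 counts, so that 1 CPM stood for 32.4 to 48.0 counts. Core markers of undifferentiated ESCs, 17 genes in all, summed to 5787 to 6190 CPM in CASP and 4190 to 4994 CPM in CAST, against 36.0 CPM in embryonic fibroblasts. The 20 fibroblast markers summed to 124 to 544 CPM in CASP and 171 to 549 CPM in CAST, against 11571 and 19596 CPM in the 2 fibroblast cultures of the study. Of 14 leukocyte markers, 2 to 4 stood at 0 in a CASP line and 3 to 5 in a CAST line, and their sum was 29.9 to 60.9 and 35.4 to 45.8 CPM. The sum of Y-linked genes was 153 to 183 CPM in male and at most 0.63 CPM in female lines, as labelled. On single chromosomes 3 lines stood apart from the other lines. Genes of chromosome 2 in CASP #F6, of chromosome 8 in CASP #F4 and of the X chromosome in CAST #F2 lay at a median of 0.44, 0.43 and 0.37 above the mean of the 8 lines on log2(CPM + 1), where no other line passed 0.06 on those chromosomes. For many results, though not for every list, values without some of these lines are given as well.

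Of 20226 genes tested, 6390 (31.6%) were called between the strains, 3077 (15.2%) higher and 3313 (16.4%) lower in CASP. With scaling by library size alone 2676 were higher and 3712 lower. Every line of one strain lay above every line of the other in 6397 genes (31.6%), and 5474 genes had both properties. The median absolute fold change of the called genes was 0.94 (quartiles 0.56 and 1.65), and the median over all genes tested was -0.02. At least 1 on the log2 scale separated the strains in 1283 higher and 1747 lower genes, at least 3 in 259 and 295, and at least 5 in 100 and 103. The share called rose from 20.1% of genes with a mean under 1 CPM to 38.6% of those between 5 and 20 CPM, while the median size among the called fell from 2.37 to 0.47 in genes over 100 CPM. In that most abundant class 599 genes were higher and 266 lower.

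Against the B6D2F1 lines, the genes higher in CASP by at least 1 were split unevenly. In 860 of them (67.0%) the B6D2F1 mean was nearer to CAST, and in 423 nearer to CASP. Among genes lower in CASP, the B6D2F1 mean was nearer to CAST in 721 (41.3%) and nearer to CASP in 1026. Thus in both directions the level of the laboratory strain lay more often beside the lower strain. Nearness was judged on log2(mean CPM + 1) over genes of every class, pseudogenes among them. Whether the pattern holds for protein-coding genes alone was not tested.

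Large differences were commonest among long noncoding RNAs and pseudogenes, classes that were not matched to protein-coding genes in abundance. Of 15561 protein-coding genes 33.6% were called, but 1.74% by 3 or more on the log2 scale. The share of such calls was 1.6% of 187 short noncoding RNAs and 5.44% of 2259 long noncoding RNAs. It was 7.08% of 2190 pseudogenes, inactive copies of genes, of which 350 were called higher and 231 lower at any size.

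The protein-coding genes of largest difference, 12 in each direction, were picked among those without overlap of the lines and served varied functions. Prxl2b (ENSMUSG00000029059, chromosome 4 of GRCm38, 154895504 to 154899135), a peroxiredoxin-like enzyme of prostaglandin synthesis, stood at 12.9, 14.1, 10.6 and 8.46 CPM in the CASP lines. The CAST lines held 0.0771, 0, 0 and 0.0857 CPM, and the fold change was 8.03 (SE 0.51, edgeR adjusted p = 2.3e-06). Its neighbor Mmel1, a membrane endopeptidase that starts 29.6 kb away, stood at 88.3, 77.9, 62.4 and 67.1 CPM in CASP against 2.24, 2.77, 3.21 and 0.943 CPM in CAST (fold change 5.01, SE 0.31, edgeR adjusted p = 2.0e-06). The annotated 3′ ends of Prxl2b and Mmel1 overlap, so reads there could be shared. The B6D2F1 lines lay between the strains for Prxl2b (3.75 CPM) but under both strains for Mmel1 (0.699 CPM).

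H2-T3, a nonclassical MHC class I gene, was at 7.30, 9.72, 5.39 and 14.8 CPM in CASP and at 0.129, 0, 0 and 0.0429 CPM in CAST (fold change 7.75, SE 0.70, edgeR adjusted p = 2.7e-05). Zbtb9, a zinc finger gene of the same chromosome 17, held 10.6, 11.4, 8.05 and 12.7 CPM in CASP, while CAST #F2 alone among the CAST lines had counts, at 0.386 CPM. The B6D2F1 lines, at 10.2 and 10.6 CPM, lay within the CASP range for Zbtb9. Among regulators of cell death, Bcl2l14, of the Bcl-2 family, stood at 16.2, 17.2, 13.6 and 19.7 CPM against 0.206, 0.271, 0.753 and 0.343 CPM (fold change 5.48, SE 0.34). Xaf1, which encodes a partner of the caspase inhibitor XIAP, stood at 7.97, 17.9, 7.02 and 23.5 CPM against 0.276 to 0.874 CPM (fold change 4.69, SE 0.50). These genes had adjusted p of at most 0.00013 by edgeR.

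The remaining 6 higher genes of the set differed by 4.01 to 5.52. Erdr1 (chromosome X) lies in the region that the X and Y chromosomes share, and stood at 20.2, 22.7, 14.5 and 9.70 CPM in CASP against 0.322 to 0.411 CPM in CAST. Its male CASP lines were above the female ones. Aox3, an aldehyde oxidase, held 4.43, 9.75, 4.49 and 39.6 CPM in CASP against 0.4997 to 1.01 CPM in CAST, so that #F6 alone raised its CASP mean (fold change 4.16, SE 0.66, edgeR adjusted p = 0.001). Glrx, a glutaredoxin that reduces protein-glutathione disulfides, stood at 14.6 to 37.2 CPM in CASP against 1.05 to 1.96 CPM in CAST. Capsl, a calcium-binding protein gene, Slco4c1, an organic anion transporter, and Trim12a, of the tripartite motif family, stood at 3.16 to 14.7 CPM in CASP lines. In CAST lines their values were 0 to 0.591 CPM, and the B6D2F1 means of 5.67, 8.70 and 3.06 CPM lay nearer to CASP.

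On the lower side, the largest fold changes belonged to Triml2, a tripartite motif-like gene, and to genes of signaling and adhesion. Triml2 (ENSMUSG00000091490, chromosome 8, 43180541 to 43193881) stood at 0.261, 0.546, 0.594 and 0.123 CPM in CASP against 80.8, 67.5, 66.9 and 79.3 CPM in CAST (fold change -7.56, SE 0.30, edgeR adjusted p = 1.8e-07). The B6D2F1 lines held 52.1 and 51.9 CPM, so CASP was the strain apart from the other 2. The same order held for Pecam1, an adhesion molecule on the surface of naive ESCs and endothelium, at 9.94, 6.84, 6.76 and 4.05 CPM in CASP, 184, 201, 224 and 215 CPM in CAST and 151 and 138 CPM in B6D2F1 (fold change -4.92, SE 0.23, edgeR adjusted p = 3.5e-07). It also held for Tnfrsf8, the TNF receptor family member CD30, whose CASP values were 0.261 to 0.604 CPM and whose CAST values were 5.81 to 7.56 CPM.

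In other lower genes CAST was the strain apart. Trpm1, a cation channel of retina and pigment cells, stood at 92.0, 83.02, 62.1 and 62.3 CPM in CAST, against 0.840, 1.38, 0.800 and 1.48 CPM in CASP and 4.13 and 3.57 CPM in B6D2F1 (fold change -6.05, SE 0.22, edgeR adjusted p = 1.2e-07). Trp73, which encodes the p53 relative p73, held 100, 128, 197 and 116 CPM in CAST and 2.49, 3.74, 2.99 and 5.03 CPM in CASP. The B6D2F1 values of Trp73, 4.30 and 10.6 CPM, were on the CASP side. Likewise Tas1r1, a subunit of the umami taste receptor, Tuba3b, an alpha-tubulin, and Ccl9, a chemokine, had CAST levels of 34.0 to 51.3, 82.8 to 124 and 7.91 to 12.8 CPM. Their CASP lines stood at 2.01 to 3.33, 1.02 to 4.49 and 0.0774 to 0.154 CPM. For each of these genes the edgeR adjusted p was at most 7.1e-06. Rcsd1, whose protein binds actin capping protein, was at 14.6 to 26.3 CPM in CAST against 1.03 to 1.59 CPM in CASP. Enox1, an oxidase of the cell surface, was at 11.9, 5.14, 4.09 and 15.8 CPM in CAST against 0.348 to 1.33 CPM in CASP, with B6D2F1 lines on the CAST side at 13.2 and 10.98 CPM. Magea13, an X-linked melanoma antigen gene, was at 2.06, 1.21, 3.21 and 16.5 CPM in CAST, where #F2, the line with raised X-linked genes, stood far above the others, and at 0 to 0.542 CPM in CASP.

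**Figure D1:**
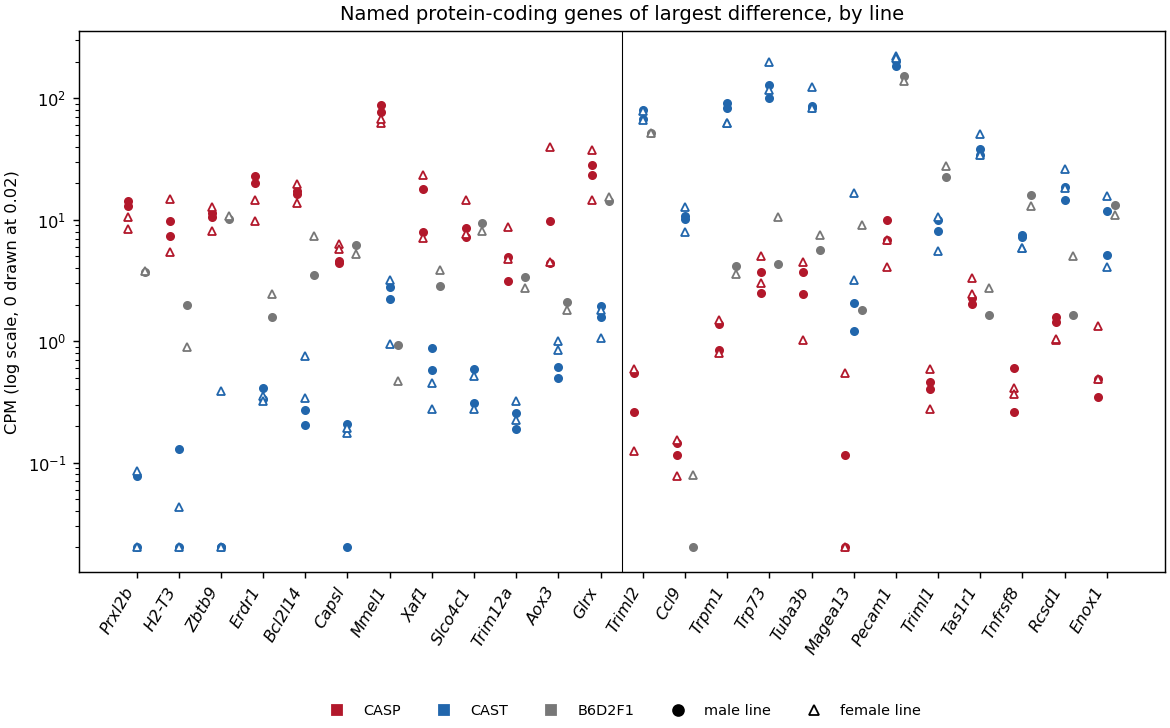
Each point is 1 line, with CPM on a log axis and 0 drawn at 0.02, for 12 named protein-coding genes higher and 12 lower in CASP. CASP lines are red, CAST blue and B6D2F1 gray, filled circles are male and open triangles female. Red and blue points never cross, as the choice of genes required. The gray points lie on the CASP side for Zbtb9 and Capsl but on the CAST side for Triml2 and Pecam1.

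Genes of high abundance, those of largest difference again picked among genes without overlap of the lines, differed by less. Map1lc3b, which encodes the autophagosome protein LC3B, stood at 498, 356, 441 and 316 CPM in CASP and at 66.6, 68.5, 73.0 and 74.8 CPM in CAST (fold change 2.50, SE 0.14, edgeR adjusted p = 1.2e-06). Calcoco2, known in human cells as an autophagy receptor, was at 445, 585, 406 and 314 CPM against 105, 83.9, 51.6 and 88.8 CPM (fold change 2.40, SE 0.22, edgeR adjusted p = 3.1e-05). Jam2, a junctional adhesion molecule, was at 502, 541, 412 and 577 CPM against 145, 106, 94.7 and 122 CPM. Dnah8, an axonemal dynein heavy chain known from cilia and sperm tails, reached 202 to 321 CPM in CASP against 39.4 to 53.3 CPM in CAST. It spans the opposite-strand gene Glo1, a glyoxalase that was higher by 0.96 (373 to 422 against 198 to 213 CPM), and how counts were divided between these 2 genes was not tested. The homeobox gene Rhox5 on the X chromosome stood at 197, 216, 333 and 402 CPM in CASP and at 47.5, 41.4, 63.2 and 137 CPM in CAST, where #F2 was again the highest line. The genes D230025D16Rik and Gm21411, of no assigned role, were higher by 2.07 and 2.00.

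Abundant genes lower in CASP included enzymes and chaperones that most cells use. Rrm2, the small subunit of the ribonucleotide reductase that makes DNA precursors, stood at 209, 111, 104 and 110 CPM in CASP and at 668, 793, 896 and 732 CPM in CAST (fold change -2.55, SE 0.21, edgeR adjusted p = 1.7e-05). Hsp90aa1, the stress-inducible HSP90 chaperone, was at 846, 825, 782 and 1139 CPM against 3998, 4120, 4145 and 4344 CPM (fold change -2.21, SE 0.11, edgeR adjusted p = 5.9e-07), with the B6D2F1 lines at 4116 and 3873 CPM. By contrast its paralog Hsp90ab1 was higher in CASP by 0.61. Ssh1, a phosphatase that activates cofilin, was at 32.6 to 44.2 CPM against 192 to 239 CPM, and here the B6D2F1 mean of 30.9 CPM was beside CASP. Apoe, a lipid carrier protein, stood at 254 to 351 CPM in CASP against 828 to 1650 CPM in CAST (fold change -1.91, SE 0.18). Dazl, an RNA-binding protein of germ cells, was at 71.3, 126, 128 and 35.9 CPM in CASP and at 793, 696, 292 and 427 CPM in CAST (fold change -2.55, SE 0.38, edgeR adjusted p = 0.00067). The male and the female CAST lines of Dazl were apart. Canx, an endoplasmic reticulum chaperone, differed by less, at 594 to 660 against 709 to 846 CPM (fold change -0.30, SE 0.07, edgeR adjusted p = 0.008, or 0.073 without CASP #F4 and #F6).

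Of the 17 core pluripotency genes, 11 were higher and 2 lower in CASP, or 8 and 2 without CASP #F4 and #F6. Their median fold change was 0.51. Of all genes 15.2% were higher and 16.4% lower. These shares of all genes, 31.6% in either direction, are the measure for every list below. A list called at about that share or under it differed no more than genes at large. The shares were not matched to the lists in abundance, and over 100 CPM 599 of 2328 genes were higher and 266 lower. Tdgf1, the Nodal co-receptor Cripto, stood at 731, 723, 618 and 581 CPM in CASP and at 112, 76.2, 73.1 and 118 CPM in CAST (fold change 2.79, SE 0.17, edgeR adjusted p = 1.6e-06). The B6D2F1 lines, at 692 and 643 CPM, matched the CASP range. For Zfp296, a zinc finger gene of ESCs, the CASP values of 113, 123, 71.4 and 80.4 CPM exceeded the CAST values of 14.0 to 17.4 CPM by 2.55 (SE 0.13). Fgf4, the growth factor that ESCs make, was at 191 to 291 CPM against 101 to 120 CPM, and Sox2 at 303 to 370 CPM against 173 to 203 CPM. Pou5f1, the gene of Oct3/4, did not pass the threshold (fold change 0.18, SE 0.07, edgeR adjusted p = 0.072, or 0.027 without CASP #F4), although its 832 to 948 CPM in CASP lay above the 735 to 825 CPM in CAST. Nanog overlapped between the strains (435 to 584 against 403 to 538 CPM). Fbxo15, a target of Oct3/4 and Sox2, fell to 20.2, 17.2 and 15.3 CPM in 3 CASP lines while #F6 kept 144 CPM, against 288 to 435 CPM in CAST (fold change -3.09, SE 0.65, edgeR adjusted p = 0.0049). In Dppa5a, an RNA-binding protein of pluripotent cells, the same line #F6 stood at 633 CPM, beside 213 to 338 CPM in the other CASP lines and 697 to 903 CPM in CAST.

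Genes of the naive state moved in both directions, 6 of 18 higher and 4 lower. Nr5a2, a nuclear receptor that can activate Pou5f1, was higher by 1.505 and Prdm14, which represses differentiation genes, by 0.85. Dppa3, also known as Stella, a maternal factor that protects methylation, was at 33.2 to 50.2 CPM in CASP against 113 to 129 CPM in CAST (fold change -1.47, SE 0.16, edgeR adjusted p = 8.9e-05). Among 13 genes of the formative and primed states, 1 was higher and 3 were lower. Otx2, a transcription factor of the exit from the naive state, stood at 50.5 to 63.8 CPM in CASP, and in CAST it split by sex into 11.1 and 14.8 CPM in male and 31.6 and 30.8 CPM in female lines (fold change 1.44, SE 0.24, edgeR adjusted p = 0.0014). Fgf5, the usual marker of primed cells, was low throughout, at 0.929 to 3.41 CPM.

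Markers of lineages that leave the pluripotent state stayed low or moved in both directions. Of 20 primitive endoderm genes 4 were higher and 5 lower, and the basement membrane genes among them split into Col4a1, a collagen IV chain (122 to 147 against 65.6 to 88.0 CPM), and Lama1, a laminin chain (18.9 to 30.1 against 49.1 to 76.3 CPM). Primitive streak and mesoderm genes counted 2 higher and 2 lower of 15. Eomes, a T-box factor of streak and trophoblast, was at 16.1, 17.1, 23.9 and 33.9 CPM in CASP against 11.6, 9.97, 9.26 and 16.6 CPM in CAST, so that its lines overlapped, and it was not called without CASP #F4 and #F6 (edgeR adjusted p = 0.11). Of 14 neural progenitor genes 3 were lower, among them Sox3, a relative of Sox2 on the X chromosome (1.59 to 4.15 against 6.05 to 8.74 CPM). Trophoblast genes numbered 3 higher and 3 lower of 13. Without CASP #F4 and #F6 the counts were 2 and 3 for primitive endoderm and 3 and 1 for trophoblast.

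The 2-cell-like state is a passing state of a few ESCs that express genes of the early embryo. Of 19 genes tested, 6 were lower and 2 higher, and 5 of the lower ones were Zscan4 genes, which lie as near-identical copies on chromosome 7, so that counts can be split among them. Without CASP #F4 and #F6, 4 genes of the list were lower and 1 higher, and its median turned from -0.13 to 0.12. Zscan4b stood at 0.869, 0.431, 0 and 0.185 CPM in CASP and at 2.62, 1.98, 1.18 and 0.943 CPM in CAST (fold change -2.55, SE 0.59, edgeR adjusted p = 0.008). Pramel7, a naive-state factor of the Prame family, was higher, with 6.81, 9.03, 17.3 and 6.33 CPM against 1.41, 0.729, 0.351 and 2.29 CPM.

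Germline and meiosis genes, many of which are silenced by DNA methylation in somatic cells, were called in 20 of 30 cases, 7 higher and 13 lower, with a median fold change of -0.60. Smc1b, the meiotic cohesin subunit, stood at 11.4, 12.8, 15.1 and 5.07 CPM in CASP against 57.7, 64.0, 45.9 and 61.8 CPM in CAST (fold change -2.37, SE 0.27, edgeR adjusted p = 0.00013). Rec8, another meiotic cohesin, and the piRNA factors Piwil2, Tdrd1 and Mov10l1 were lower by 1.26 to 1.56. Brdt, a testis bromodomain protein, went the other way, at 7.07 to 13.9 CPM in CASP against 1.63 to 2.79 CPM in CAST, as did Stag3 (1.06) and Sycp3 (0.69). Without the CASP lines #F4 and #F6, 6 were higher and 13 lower.

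Among the genes that modify DNA and chromatin, 4 of 16 genes of the methylation machinery were higher and none lower by the edgeR test. This was 25% of the list, under the 31.6% of all genes. With scaling by library size alone 3 were higher and 2 lower, and without CASP #F4 and #F6 2 were higher and 1 lower. Tet2, which oxidizes methylcytosine, stood at 236, 312, 231 and 216 CPM in CASP against 116, 92.5, 89.4 and 98.7 CPM in CAST (fold change 1.32, SE 0.11, edgeR adjusted p = 1.6e-05). Polycomb genes, which keep developmental genes repressed, numbered 10 higher and 5 lower of 33. Pcgf6, of a variant Polycomb complex of ESCs, was at 167 to 197 CPM against 82.3 to 96.1 CPM, and Ezh2, the methyltransferase, was higher by 0.42. Without #F4 and #F6, and likewise without CAST #F2, 10 Polycomb genes were higher and 2 lower. For retrotransposon silencing 11 of 28 genes were higher and 4 lower. Trim28 and Setdb1, the corepressor and the histone methyltransferase that zinc finger proteins recruit, were higher by 0.34 and 0.72, the former not called without #F4 and #F6 (edgeR adjusted p = 0.074). Zfp809, a zinc finger protein that binds proviral DNA, was lower at 14.1 to 25.2 CPM against 43.7 to 53.6 CPM. Without #F4 and #F6 the counts were 6 higher and 4 lower.

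Of 40 imprinted genes 5 were higher and 10 lower. Their levels varied among lines of one strain, for example H19, the maternally expressed RNA beside Igf2, at 81.4, 16.5, 25.3 and 54.0 CPM in CASP and at 78.3, 122, 123 and 182 CPM in CAST (fold change -1.49, SE 0.44, edgeR adjusted p = 0.026). The lines overlapped there, and the call was lost without CASP #F4 (-1.21), CAST #F2 (-1.29) or CAST #M8 (-1.46), with an edgeR adjusted p of 0.069 in each case. Phlda2, a growth-restricting imprinted gene, was at 34.0, 37.4, 14.1 and 8.52 CPM in CASP, the male lines above the female ones, and at 3.67 to 5.93 CPM in CAST. Usp29 and its neighbor Peg3, which share an imprinted domain, moved in opposite directions, by 1.55 and -1.14. Without #F4 and #F6, 4 imprinted genes were higher and 6 lower.

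In the signaling pathways that the culture medium acts on, single components differed while the lists did not lean. For LIF and STAT3 3 of 19 genes were higher and 3 lower. Lifr, the LIF receptor, stood at 83.6, 100, 79.2 and 110 CPM in CASP against 29.0, 12.7, 26.5 and 21.4 CPM in CAST (fold change 2.05, SE 0.23, edgeR adjusted p = 0.00012), and Socs3, the feedback inhibitor of the pathway, was higher by 0.86. Of 30 FGF and MAPK genes 6 were higher and 7 lower. Ligands split into Fgf4 (higher) and Fgf17 (lower, 0.247 to 0.575 against 2.16 to 4.24 CPM). Receptors Fgfr2 and Fgfr3 were lower by 1.06 and 1.22, although the annotated span of Fgfr2 takes in many other genes, so that its counts are uncertain. The feedback inhibitors Spry2, Spred1 and Spred2 were higher by 1.59, 0.93 and 0.69, and Spry2 stood at 122, 101, 120 and 103 CPM against 33.4, 34.7, 39.96 and 39.8 CPM. Spry1 was lower by 1.18. Id2, an inhibitor of differentiation that BMP induces, fell to 11.6, 9.86, 8.36 and 7.60 CPM in CASP from 61.2, 104, 82.6 and 60.6 CPM in CAST (fold change -3.06, SE 0.18, edgeR adjusted p = 1.6e-06), whereas its relative Id3 was higher by 0.69.

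Nodal and BMP genes counted 7 higher and 4 lower of 34. Nodal itself, a ligand of the TGF-beta family, stood at 225, 247, 180 and 237 CPM in CASP against 108, 103, 123 and 140 CPM in CAST (fold change 0.91, SE 0.12, edgeR adjusted p = 0.00039). Together with its co-receptor Tdgf1 it was higher, while a receptor, Acvr2b (5.03 to 6.21 against 19.3 to 24.04 CPM), and the transducers Smad2 (-0.51) and Smad3 (-0.79) were lower. In the Wnt pathway 4 of 35 genes were higher and 7 lower. The ligands Wnt3, Wnt7b and Wnt8a were lower by 1.46 to 1.82 at low levels, and the receptors divided into Fzd5 (0.997) and Lgr4 (1.21, at 133 to 197 against 60.9 to 74.9 CPM) and the lower Fzd2 (-1.38) and Fzd7 (-0.92). For Notch signaling 3 of 20 genes were higher, such as the ligand Jag1, and the receptor Notch3 was lower, at 34.4 to 47.2 against 115 to 152 CPM. In the Hippo pathway 2 of 23 were higher and 5 lower, and Ccn2, a target of YAP, stood at 226, 154, 225 and 74.7 CPM against 291, 449, 538 and 382 CPM.

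Genes of the cell cycle, DNA repair and cell death also divided. Of 38 cell cycle genes 5 were higher and 9 lower. Cdk2, the kinase of S phase entry, was at 190 to 205 CPM against 110 to 122 CPM (fold change 0.74, SE 0.08), and Rb1, the retinoblastoma protein that restrains that step, at 12.6 to 18.8 CPM against 25.4 to 30.4 CPM (fold change -0.89, SE 0.13). Cdkn2b, an inhibitor of the cyclin D kinases, was lower by 2.14. DNA repair genes counted 11 higher and 6 lower of 52, or 6 and 5 without #F4 and #F6 and likewise 6 and 5 without CAST #F2, with Neil2, a base excision glycosylase, higher by 2.46 and the scaffold Xrcc1 of the same pathway lower by 0.84. Trp53, the gene of p53, was higher by 0.38, at 400 to 436 against 293 to 351 CPM (edgeR adjusted p = 0.0054, or 0.055 without #F4 and #F6), and of 26 p53 family members and targets 6 were higher and 4 lower, or 4 and 1 without these lines. Of 32 apoptosis genes 7 were higher and 2 lower, 28.1% called against 31.6% of all genes. Next to Bcl2l14 the higher ones included the pro-apoptotic Bmf (31.7 to 46.2 against 14.4 to 18.1 CPM), Bok and Bcl2l11 and the initiator caspase Casp2. Bid, another pro-apoptotic member of the family, was lower (22.7 to 33.8 against 56.2 to 78.9 CPM).

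Among metabolic and stress genes, cholesterol and heat shock genes were more often lower than higher. Of 24 genes of cholesterol synthesis and uptake 11 were lower and 1 was higher, with a median fold change of -0.56. The higher one was Pmvk, a kinase of the mevalonate pathway, whose call was lost without any one of CASP #M3 and #M5 and CAST #M2, #M8 and #F2 (edgeR adjusted p = 0.059 to 0.070). Among the lower ones Fdps, which makes farnesyl diphosphate, stood at 140, 99.7, 113 and 107 CPM in CASP against 148, 176, 245 and 201 CPM in CAST (fold change -0.74, SE 0.15, edgeR adjusted p = 0.0048, or 0.088 without CASP #F4 and #F6), with CAST #F1 the highest line. Without CASP #F4 and #F6 4 genes were lower and 1 higher, at a median of -0.37. The heat shock and unfolded protein list had 13 lower genes and 1 higher of 34. Beside Hsp90aa1 the lower ones included Pdia4, a disulfide isomerase (75.1 to 90.6 against 123 to 161 CPM), and Chac1, which degrades glutathione under stress (23.7 to 34.9 against 48.4 to 61.2 CPM), while Hspa5, the main chaperone of the endoplasmic reticulum, was not called. Without #F4 and #F6, 8 were lower and 3 higher.

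Autophagy genes showed 12 higher and 5 lower of 39. Next to Map1lc3b and Calcoco2, Gabarapl2, of the same family as LC3B, was higher by 1.43, Optn, a receptor, by 0.96 and Ulk1, the initiating kinase, by 0.77. Tfeb, the transcription factor that activates such genes, was lower, at 5.79, 10.3, 6.503 and 9.42 CPM against 46.5, 30.7, 19.9 and 43.4 CPM (fold change -2.14, SE 0.29, edgeR adjusted p = 0.00037), and so was the receptor Sqstm1 (-0.81). Without #F4 and #F6, and likewise without CAST #F2, 10 autophagy genes were higher and 3 lower. Glycolysis genes counted 6 higher and 4 lower of 31, or 5 and 2 without #F4 and #F6. The isoforms of phosphofructokinase went apart, with Pfkm at 43.4 to 61.0 against 18.6 to 32.5 CPM and Pfkp at 218 to 355 against 586 to 651 CPM. Glutathione genes, 5 higher and 7 lower of 41, included Mgst1, a microsomal transferase, at 5.09 to 9.80 against 0.848 to 1.22 CPM, and Gsto1, an omega-class transferase, at 10.5 to 13.9 against 36.5 to 59.0 CPM. For the 73 nuclear subunits of oxidative phosphorylation, 10 were higher and 10 lower, against 5 and 6 without #F4 and #F6 and 6 and 16 with scaling by library size alone. Of 15 mitochondrially encoded genes, of laboratory-mouse type in every line, 2 were higher and 1 lower, and the higher ones were the ribosomal RNAs mt-Rnr1 and mt-Rnr2, by 0.57 and 0.85. Without #F4 and #F6, 2 of the 15 were higher and 5 lower.

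Innate immune genes were more often lower, 14 of 36, with 6 higher, or 10 and 6 without CASP #F4 and #F6. The oligoadenylate synthetases, sensors of double-stranded RNA, fell together, and Oas1a stood at 4.75, 7.19, 4.41 and 9.70 CPM in CASP against 56.6, 43.0, 50.7 and 53 CPM in CAST (fold change -2.98, SE 0.24, edgeR adjusted p = 1.3e-05). Oas2 and Oas3 lie beside it on chromosome 5 and were lower by 2.68 and 2.05, at under 4 CPM in every line. The membrane protein Ifitm1 was lower by 1.22. Bst2, which tethers budding viruses, was higher by 2.05, at 59.9, 39.96 and 46.3 CPM in 3 CASP lines but at 6.52 CPM in #F6, below the 6.73 to 11.97 CPM of CAST, and its call was lost without #F4 (1.77, edgeR adjusted p = 0.055). Of 10 interferon-inducible GTPases 4 were higher, and Gbp6 and Ifi47 among them stayed under 1 CPM in every line. Of 24 genes of MHC class I and antigen processing, 3 were higher and 6 lower. In contrast to H2-T3, the classical gene H2-K1 stood at 3.45 to 5.10 CPM in CASP against 8.22 to 10.8 CPM in CAST, and H2-Q4 at 2.14 to 5.37 against 15.6 to 18.1 CPM. MHC alleles are highly polymorphic, and reads of both strains were aligned to the C57BL/6J genome. The part of allele differences in these levels was not tested.

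Some gene families leaned one way. Zinc finger genes with Zfp symbols numbered 91 higher and 49 lower of 388 (median 0.13), and 67 and 46 without #F4 and #F6. Small nucleolar RNA host genes were higher in 10 of 16 cases, for example Snhg3 at 16.6 to 22.9 CPM against 5.37 to 8.55 CPM, and Snhg11 alone was lower. Tetraspanins, which organize membrane proteins, were lower in 11 of 20 and higher in 2, and without CAST #F2 in 6 and 1. The Mage genes had 13 lower and none higher of 28 by the edgeR test, but without CAST #F2 7 were lower and 2 higher, and without CASP #F4 and #F6 3 were lower. Magea3, for instance, stood at 5.83 CPM in CAST #F2, at 0.180 to 0.828 CPM in the other CAST lines and at 0 to 0.155 CPM in CASP.

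**Figure D2:**
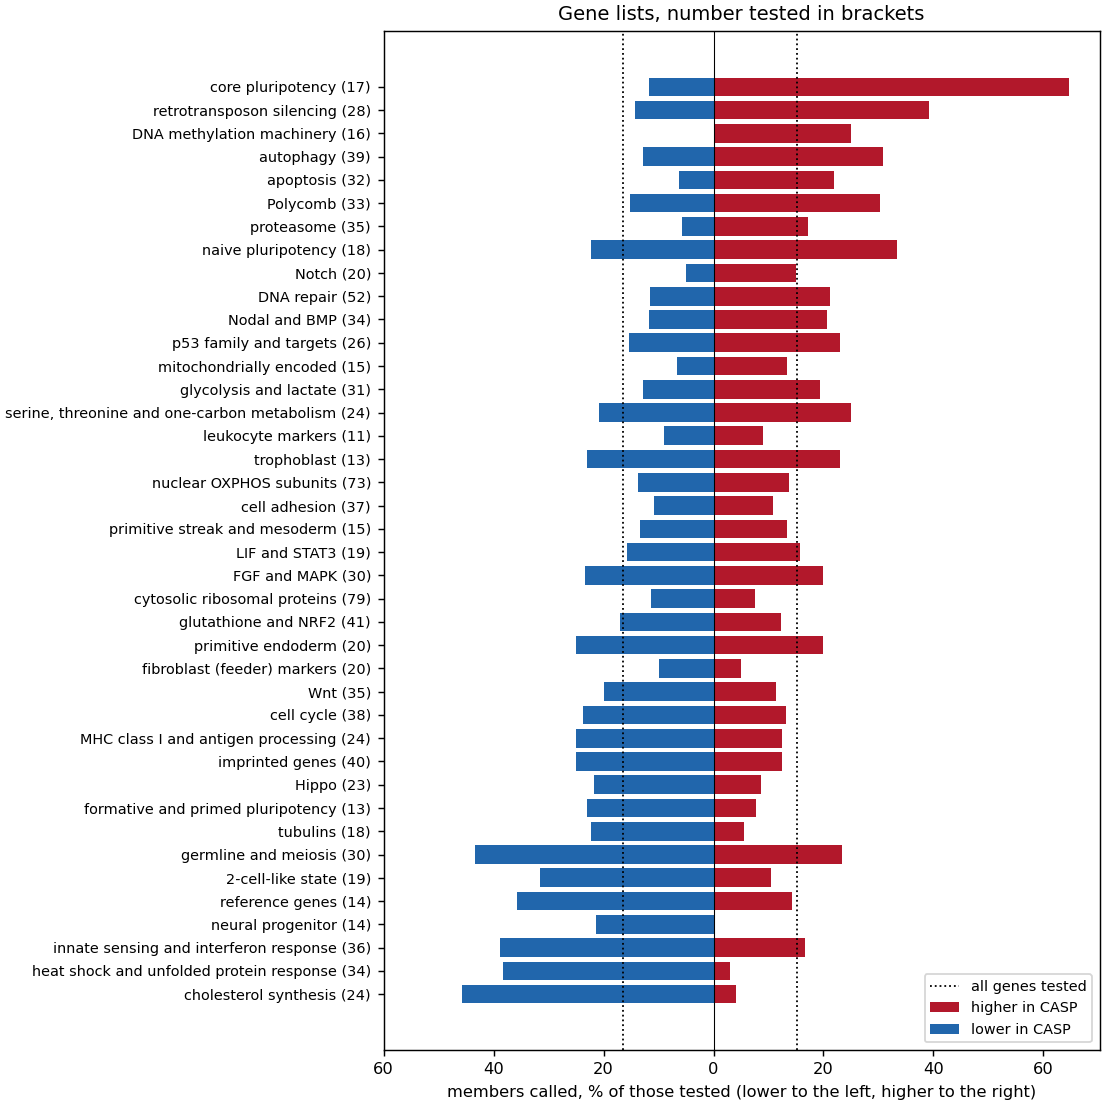
For each gene list with at least 10 genes tested, the bar to the right is the share of members higher in CASP and the bar to the left the share lower, with the number tested in brackets and dotted lines at the shares of all genes, 15.2% and 16.4%. Core pluripotency has the longest bar to the right (11 of 17), and cholesterol synthesis the longest to the left (11 of 24).

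Differences in pseudogenes often stood beside a difference in the gene they were copied from. Pseudogenes were joined to the gene whose transcript their own matches best, over 85% identical, which gave a parent to 1909 of 2190 tested. In 146 parents a called pseudogene reached a mean of 5 CPM. Of these genes 92 were called when counted alone, where 31.6% of all genes tested and 37.2% of those over 100 CPM were called. The 146 parents were picked for a called copy with which they can share reads, so their calls are not separate observations. With the counts of their pseudogenes added 71 of the 92 stayed called, while 11 of the other parents were called only then. In 25 the parent was lower and its pseudogenes higher on summed CPM, and in 29 the reverse.

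Rps23, a protein of the small ribosomal subunit, stood at 341, 315, 357 and 359 CPM in CASP and at 1291, 1287, 1414 and 1220 CPM in CAST (fold change -1.93, SE 0.07, edgeR adjusted p = 1.2e-07). Its pseudogene Rps23-ps2 on chromosome 8 showed the reverse, 843, 758, 859 and 879 CPM in CASP and 7.94, 8.72, 11.02 and 9.52 CPM in CAST. With all 6 pseudogenes of Rps23 added, the strains stood at 1327 ± 87.6 and 1369 ± 90.1 CPM (n = 4 each, fold change -0.05, SE 0.07, edgeR adjusted p = 0.65). The difference of the gene alone was matched by the opposite difference of the copies. To show how close the copies are, the coding stretch of bases 227 to 316 of Rps23 is given with its 3 pseudogenes of largest rise, from GENCODE M21 (GRCm38), with capitals at the bases that differ.
Rps23: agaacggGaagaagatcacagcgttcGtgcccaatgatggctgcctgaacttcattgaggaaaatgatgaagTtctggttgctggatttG
Rps23-ps2: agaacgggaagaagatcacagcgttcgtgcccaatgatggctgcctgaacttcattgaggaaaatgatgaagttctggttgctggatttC
Gm10689: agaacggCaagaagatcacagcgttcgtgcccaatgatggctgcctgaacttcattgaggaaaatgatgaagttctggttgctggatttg
Gm10054: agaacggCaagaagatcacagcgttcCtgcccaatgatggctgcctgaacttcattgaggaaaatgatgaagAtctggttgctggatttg
Over the whole coding sequence the copies differed from Rps23 at 2 of 429, 4 of 429 and 5 of 428 bases. A read that covers none of these bases matches gene and copy alike on the C57BL/6J reference. How reads of the strains were divided between gene and copies was not tested.

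Rpl12, of the large subunit, repeated the pattern with 9 pseudogenes. The gene stood at 496, 421, 450 and 554 CPM in CASP and at 1069, 1042, 1245 and 1115 CPM in CAST (fold change -1.22, SE 0.09). Gm11425 stood at 337, 286, 350 and 371 CPM against 2.80, 2.44, 2.91 and 2.34 CPM, and Gm9396 at 322 to 466 against 19.1 to 32.5 CPM. Summed with the pseudogenes, the strains were at 1346 ± 170 and 1363 ± 115 CPM (n = 4 each, fold change -0.02, edgeR adjusted p = 0.89). Bases 136 to 225 of the coding sequence show the sites at which the 3 copies part from Rpl12, in capitals.
Rpl12: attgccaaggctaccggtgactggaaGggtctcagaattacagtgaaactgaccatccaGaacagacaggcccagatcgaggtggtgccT
Gm9396: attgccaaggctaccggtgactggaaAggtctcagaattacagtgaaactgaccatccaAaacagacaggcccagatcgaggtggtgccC
Gm11425: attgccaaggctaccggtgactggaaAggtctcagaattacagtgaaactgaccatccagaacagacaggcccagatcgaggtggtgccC
Rpl12-ps1: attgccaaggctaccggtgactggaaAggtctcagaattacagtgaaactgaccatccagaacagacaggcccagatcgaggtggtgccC
Gm9396 and Gm11425 each differed from Rpl12 at 4 of 495 coding bases and Rpl12-ps1 at 22.

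Rpl39 (-1.72 alone, -0.08 with pseudogenes), Rps6 (-0.80 and -0.10), Rpl30 (-0.78 and -0.13), Rps10 (-0.51 and 0.04) and the poly(A)-binding protein gene Pabpc4 (-0.55 and -0.02) lost their calls in the same way. The list of 79 cytosolic ribosomal proteins went from 6 higher and 9 lower to 5 higher and 4 lower. Counted alone, it was 2 and 12 with scaling by library size and 2 and 9 without CASP #F4 and #F6. Nutf2-ps1, itself annotated as protein-coding, was lower alone (-0.77) and higher with its pseudogenes (0.41, edgeR adjusted p = 0.036).

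Gapdh, a glycolytic enzyme and a common reference gene, has many copies. The gene stood at 45.5, 38.7, 42.5 and 46.6 CPM in CASP, at 104, 110, 129 and 119 CPM in CAST and at 615 and 730 CPM in B6D2F1 (fold change between CASP and CAST -1.42, SE 0.08, edgeR adjusted p = 1.6e-06). With its own 52 pseudogenes added, Gapdh stood at 3794 ± 570 and 5282 ± 834 CPM and was still called lower (n = 4 each, fold change -0.47, SE 0.12, edgeR adjusted p = 0.014). Together with the copy Gm10358 and 71 pseudogenes, of which 39 were higher and 11 lower, the sum was 4956 ± 717 CPM in CASP and 5527 ± 866 CPM in CAST, a ratio of 0.90 given with no test, and 6858 CPM in B6D2F1. Most counts of this enzyme were therefore on pseudogenes in every line. Bases 208 to 297 of the annotated coding sequence of Gapdh are given with a copy lower in CASP (Gm12671, 77.2 to 111 against 372 to 519 CPM) and 2 copies higher in CASP (Gm10284, 469 to 647 against 50.9 to 71.6 CPM, and Gm9061, 71.9 to 102 against 0.0857 to 0.176 CPM), again with capitals at the bases that differ.
Gapdh: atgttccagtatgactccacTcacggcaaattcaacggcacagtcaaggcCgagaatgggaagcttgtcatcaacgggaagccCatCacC
Gm12671: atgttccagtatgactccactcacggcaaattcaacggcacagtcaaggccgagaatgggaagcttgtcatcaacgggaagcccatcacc
Gm10284: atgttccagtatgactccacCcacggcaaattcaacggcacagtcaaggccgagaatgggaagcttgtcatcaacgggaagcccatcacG
Gm9061: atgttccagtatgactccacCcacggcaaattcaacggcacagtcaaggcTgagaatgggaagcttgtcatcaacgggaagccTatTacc
Gm12671 was identical to Gapdh over 999 bases compared, Gm10284 differed at 7 of 1002 and Gm9061 at 68 of 993.

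Other genes kept their difference when copies were added. Hsp90aa1 remained at -2.21 with its 3 pseudogenes, all of them lower as well, Tdgf1 rose from 2.79 to 2.96 with Tdgf1-ps1, and Map1lc3b went from 2.50 to 2.32.

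**Figure D3:**
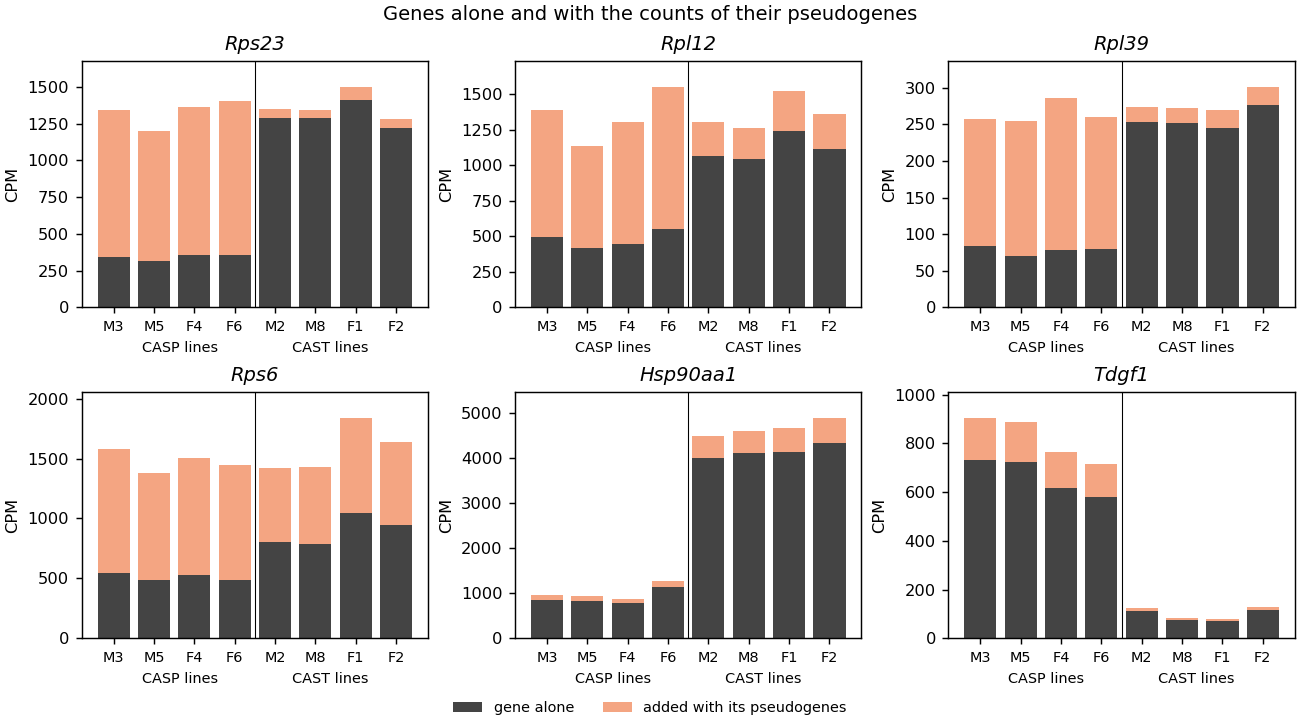
Stacked bars give the CPM of a gene alone (dark) and what its pseudogenes add (orange) in each of the 8 lines, for 6 genes. For Rps23, Rpl12, Rpl39 and Rps6 the dark part is smaller in CASP while the full bars reach similar heights, and for Hsp90aa1 and Tdgf1 the full bars differ as much as the dark ones.

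Some RNAs were seen in 1 strain only. Clec2f, a C-type lectin pseudogene, stood at 5.27, 5.35, 9.52 and 7.29 CPM in CASP with no count in any CAST or B6D2F1 line. Gm7191, a processed pseudogene that matches Gapdh best (90.7% identity), stood at 10.4 to 16.8 CPM, likewise with no count there. Set against 3 counts in a single CAST library, these pseudogenes are at least 89.0-fold and 171-fold higher. How reads were divided between Gm7191 and the other copies of Gapdh was not tested. In reverse, Cyp2b23, a cytochrome P450, had no count in CASP, 4.37, 2.25, 1.56 and 4.24 CPM in CAST (at least 33.5-fold higher) and 8.29 and 8.01 CPM in B6D2F1. In all, 43 called genes, 20 of them protein-coding, had no count in CAST, and 61, 33 of them protein-coding, had none in CASP. Among long noncoding RNAs AI662270 was at 21.1, 23.6, 49.6 and 19.4 CPM in CASP against 0.0257 to 0.793 CPM in CAST, and Gm47725 at 0 to 0.174 CPM in CASP against 36.8, 23.2, 16.8 and 30.8 CPM in CAST. Platr1, named for its link to pluripotency, was at 0.284 to 0.494 CPM against 4.65 to 6.66 CPM.

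By genome position, called genes were spread over all chromosomes, between 26.2% of the genes tested on chromosome 2 and 36.7% on chromosome 12 among the autosomes. Chromosomes 2 and 8 leaned to CASP, with 232 higher and 165 lower and 193 higher and 97 lower genes. Without CASP #F4 and #F6 the numbers were 162 and 187 on chromosome 2 and 121 and 120 on chromosome 8, so these leanings rested on the 2 lines with raised levels there. The X chromosome had 51 higher and 188 lower of 803 genes (median -0.28). It kept more lower than higher genes without #F4 and #F6 (60 and 108, median -0.16) and without CAST #F2 (63 and 114, median -0.20). Neither setting left out all female lines. The median deviation on X was -0.086 and -0.077 in male CASP lines against -0.063 and -0.040 in male CAST lines. In female lines it was 0.017 and -0.123 against 0.060 and 0.370, so the strains lay closer in the male lines. The part of the female lines in this leaning was not tested. Xist, the RNA of X inactivation, was low in all lines, at 7.85 and 9.79 CPM in male and 14.9 and 15.5 CPM in female CASP lines, and reached its highest value, 29.8 CPM, in CAST #F2. On the Y chromosome 7 of 24 genes were higher and 10 lower, and in the male lines Ddx3y, an RNA helicase, was at 41.0 and 43.3 CPM in CASP against 76.0 and 81.5 CPM in CAST. These Y counts come from the fit on male and female lines together. Some Y entries held counts in female lines too, such as the pseudogene Gapdh-ps15, at 392 ± 57.0 CPM over the CASP lines (n = 4).

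**Figure D4:**
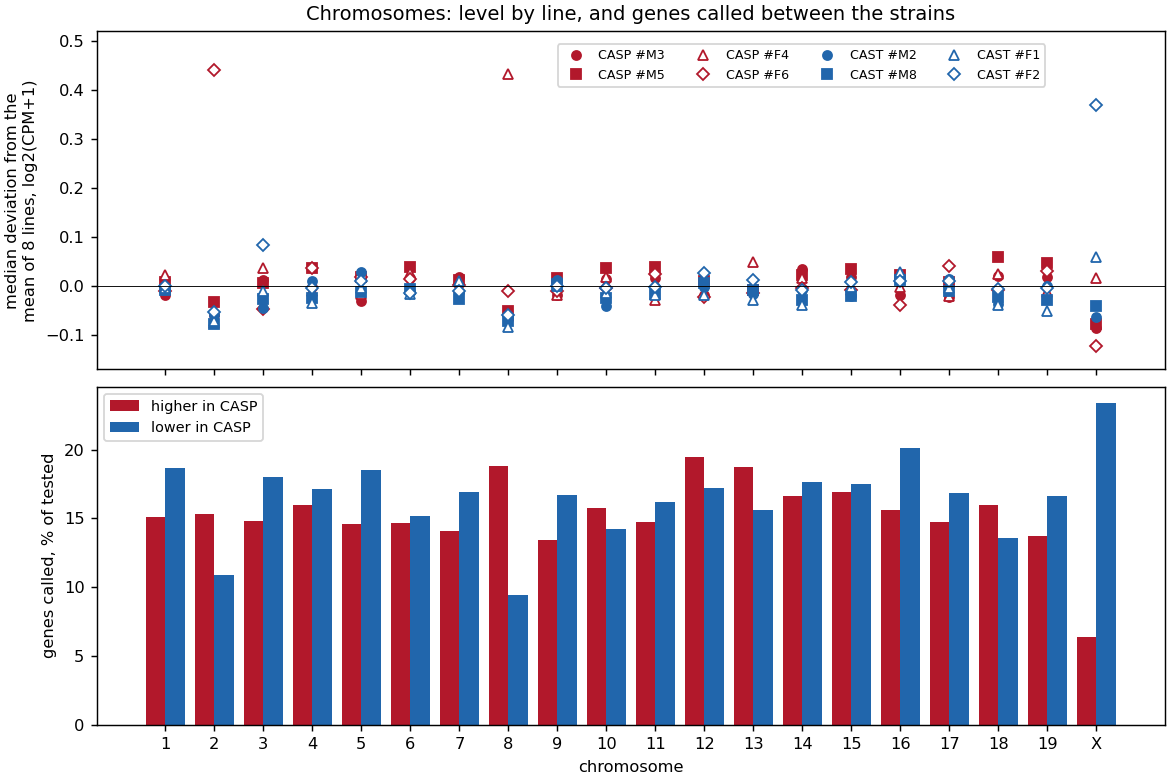
The upper part shows, for each of the 8 lines, the median deviation of the genes of a chromosome from the mean of all lines on log2(CPM + 1), and the lower part the percentage of genes tested that were higher or lower in CASP. CASP #F6 stands out on chromosome 2 (0.44), CASP #F4 on chromosome 8 (0.43) and CAST #F2 on X (0.37).

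Called genes had like-minded neighbors. Where 2 adjacent genes were both called, they changed in one direction in 1550 of 2267 pairs (68.4%). The share was 61.8% for genes 2 positions apart, 55.2% at 5, 53.7% at 10, 51.6% at 50 and 50.6% at 200 positions. Among protein-coding genes that do not overlap it was 66.2% for adjacent genes, and without #F4 and #F6 68.4% of all adjacent pairs. By orientation it was 70.8% for divergent, 65.6% for same-strand and 63.0% for convergent pairs, and 54 of 72 divergent pairs (75%) whose starts lie within 1000 bases agreed. Overlapping pairs, at 71.6%, can share reads, since whether counting used the strand is not given in the sources used here. Arrays of related copies, described below, can share reads as well. None of these shares was taken without such arrays or without CAST #F2.

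In windows of 1 Mb with at least 8 genes tested, 946 in all, the median share called was 30%. No gene was called in 23 windows and at least 50% were in 144 (15.2% of windows), or in 5.22% of windows without #F4 and #F6. The window of largest share higher lay on chromosome 6 from 142000001 to 143000000, with 6 of 9 genes higher, or 3 of 7 without #F4 and #F6 and 4 of 9 without CAST #F2. There St8sia1, a ganglioside sialyltransferase, stood at 2.12 to 5.50 CPM against 0.154 to 0.271 CPM and Recql, a DNA helicase, at 19.4 to 26.3 against 6.68 to 9.66 CPM. On chromosome 8 between 80000001 and 81000000 the higher genes were 5 of 8, or 4 of 8 without #F4 and #F6, among them Gab1, a signaling adaptor at 304 to 451 against 154 to 171 CPM, whose highest line was #F4. Other windows near the top held arrays of related unnamed genes, such as 11 of 17 higher on chromosome 12 from 19000001 to 20000000 and 12 of 16 lower on chromosome 10 from 100000001 to 101000000, where the named gene Kitl was not called. These counts were 9 and 10 without #F4 and #F6.

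The longest stretch without an exception was 14 called genes on the X chromosome between 147742175 and 149984982, all lower, most of them unnamed, of which 14 were called without CASP #F4 and #F6 and 12 without CAST #F2. Luzp4, a leucine zipper protein gene among them, stood at 0.609, 0.632, 2.92 and 0.525 CPM in CASP and at 2.29, 2.44, 3.84 and 11.1 CPM in CAST, with #F4 and #F2 the highest lines of their strains. Similar arrays gave 12 lower genes on chromosome 10 and 8 higher genes of the Eif1ad cluster on chromosome 12. In such arrays reads can be shared among copies, so that neighboring calls are not separate observations.

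Stretches of unrelated genes were shorter. On chromosome 12 between 24000001 and 25000000, 8 of 12 genes were lower and none higher, or 6 without #F4 and #F6. Beside Rrm2 itself, Grhl1, an epithelial transcription factor, was at 1.20 to 3.04 against 7.42 to 7.88 CPM, Klf11, a Krüppel-like factor, at 53.1 to 80.0 against 111 to 121 CPM, and Mboat2, a lysophospholipid acyltransferase, at 6.86 to 17.3 against 25 to 30.9 CPM. Id2, which starts 389 kb from Rrm2, was the most reduced named gene of the neighborhood, with Kidins220 between them unchanged in call (fold change 0.08, SE 0.09, edgeR adjusted p = 0.55). On chromosome 7 from 19671584 to 19750483 a stretch of 6 lower genes held Apoc1 (11.2 to 17.6 against 42.7 to 65.3 CPM) and Apoe, lipoprotein components, and Nectin2 (-0.64), an adhesion molecule. Next to Mmel1 and Prxl2b on chromosome 4, Ttc34 was higher by 2.06, as were Prdm16 and 2 unnamed genes, to make a stretch of 6, whereas Pank4, 94.5 kb from Mmel1, was not called (-0.13, SE 0.14).

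Neighbors could also part. Zfp42, the ESC marker Rex1, was at 508, 573, 754 and 505 CPM in CASP against 223, 173, 162 and 224 CPM in CAST (fold change 1.57, SE 0.15, edgeR adjusted p = 4.7e-05). The next genes tested on that side of chromosome 8, Triml2, Gm6284 and Triml1, start 126, 148 and 165 kb away and were lower by 7.56, 5.28 and 4.28. Triml1 stood at 0.464, 0.403, 0.594 and 0.278 CPM in CASP, at 9.94, 8.10, 5.55 and 10.5 CPM in CAST and at 22.4 and 27.5 CPM in B6D2F1. Zfp42 itself was lower still in B6D2F1, at 118 and 116 CPM, so its order over the 3 strains was the reverse of that of Triml1.

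**Figure D5:**
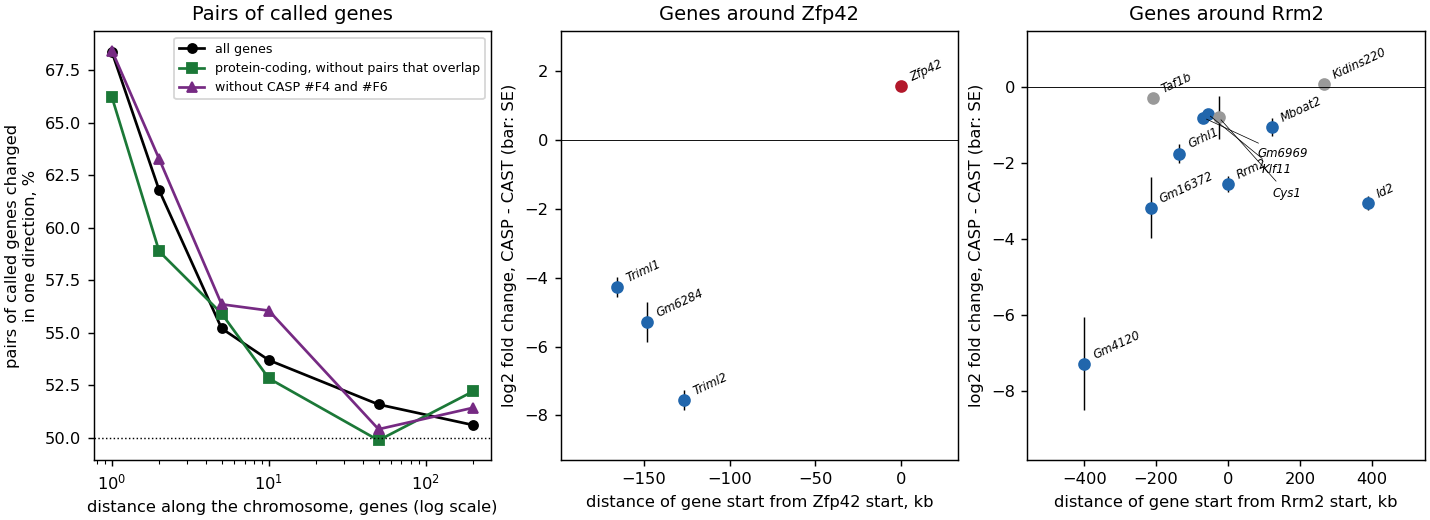
On the left, the percentage of pairs of called genes that changed in one direction is plotted against their distance in genes on a log axis; the other panels give the fold change with its SE for genes around Zfp42 and around Rrm2 by the distance of their start sites in kb. The share falls from 68.4% at 1 gene to 50.6% at 200, Zfp42 (1.57) stands opposite to Triml1 and Triml2, and the genes around Rrm2 lie at or under 0 apart from Kidins220 (0.08).

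The design, 2 male and 2 female lines a strain, also allows the question of whether the strain difference depended on sex. Only 3 of 18838 genes (0.0159%) passed the edgeR test of that interaction, and 862 had an unadjusted p under 0.05, fewer than chance alone would give. With 2 lines per strain and sex the test can miss differences. So few calls do not show that the strain difference was alike in male and female lines. Whether lines of one strain and sex shared a donor mouse is not given in the sources used here, so sex and donor cannot be told apart. DESeq2 called 24. Erbb3, a receptor of the EGF receptor family, stood at 99.97 and 111 CPM in the male CASP lines and at 19.7 and 20.1 CPM in the female ones, beside 19.1 to 25.8 CPM in all CAST lines (edgeR adjusted p = 0.037). Ppp1r26, a regulatory subunit of protein phosphatase, fell in the female CAST lines, to 0.878 and 0.836 CPM, from 17.4 and 17.3 CPM in the male ones, while the CASP lines were at 10.4 to 18.0 CPM (edgeR adjusted p = 0.034). Gm2999, a processed pseudogene, had no count in the female CASP lines, 18.3 and 14.1 CPM in the male ones and 6.501 to 9.21 CPM in CAST (edgeR adjusted p = 0.0046). In Erbb3 and Ppp1r26 it was 1 pair of lines of one strain and sex that stood apart from the other 6, whereas in Gm2999 the male CASP lines lay above CAST as well. Erbb3 lost its call without any one of the 8 lines (edgeR adjusted p = 0.084 to 0.44), Ppp1r26 without any one but CASP #F4 and #F6 (0.18 to 0.28) and Gm2999 without CAST #M2 (0.087) or #M8 (0.078).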

How the data were processed

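RNA was sequenced from 13 libraries, of which the 4 CASP and 4 CAST ntESC lines were compared. Per the labels and the methods, poly(A) RNA was made into stranded TruSeq libraries, trimmed with fastp 0.22.0, aligned to GRCm38, a C57BL/6J genome, with HISAT2 2.2.1 and counted with StringTie 2.1.7. The authors deposited whole-number counts per gene and a second table of log2 values, which equal log2(count divided by a size factor, plus 4) within 5e-05. The counts were used here, and the log2 table served one alternative. Whether counting used the strand is not given in the sources used here.

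Samples were grouped by the strain in the labels. Genes were kept by filterByExpr, scaled by TMM and tested in edgeR 4.0.16 (limma 3.58.1, R 4.3.3) with glmQLFit and glmQLFTest over the 10 ntESC lines, with strain and sex as terms, and Benjamini-Hochberg adjustment at 0.05. The strain-by-sex term was fitted on the 8 lines. Scripts were tested on simulated data. Alternatives were other scalings and filters, DESeq2 1.42.0, limma-trend, other sets of lines, each line left out, and pseudogene counts added to the gene of best match (at least 85% identity over 50% of the pseudogene, by GENCODE M21 transcripts). The depth of 33395162 to 45690960 counts puts 3 counts at 0.0625 to 0.0927 CPM. Of the genes tested 28 had no entry in GENCODE M21 and took no part in positions, and 81 had no symbol.

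The lines, the gene lists and the tests were chosen with earlier results of these data known. Genes were named by rule. In each direction these were the 12 named protein-coding genes of largest change with at least 5 CPM and no overlap. Added to them were the 8 protein-coding genes of largest change with at least 200 CPM and no overlap. Each list gave up to 4 genes of largest change. Other members of lists and loci were named for their role after their values were seen. Some members of the lists are not reported here by name.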

Additional observations from a re-analysis of the deposited data

Results flagged for a closer look

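In 392 groups of 4 lines of one strain, formed by the named genes and the chromosome medians, 27 held 1 line whose gap to the nearest other line was past the critical value of Dixon's test, which chance passes in about 5% of groups. No cause of these gaps was tested.

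CASP #F4 stood apart in 7 of them. It was the highest CASP line for AI662270 (49.6 CPM), Gab1 (450.6 CPM), Luzp4 (2.92 CPM), Nutf2-ps1 (37.4 CPM) and Wnt8a (2.32 CPM), and for the median deviation of chromosome 8 (0.433) and of chromosome 13 (0.050). Gab1 lies on chromosome 8. CASP #F6 was the highest CASP line for Aox3 (39.6 CPM), Enox1 (1.33 CPM), Fbxo15 (144 CPM), Hspa5 (839 CPM), Trp53 (436.5 CPM) and chromosome 2 (0.441), and the lowest for Pcgf6 (167 CPM). Among the male CASP lines, #M5 was high for Pabpc4 (285 CPM) and Trim28 (1802 CPM) and #M3 for Rrm2 (209 CPM).

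In CAST, #F2 was high for the X-linked Magea13 (16.5 CPM) and Magea3 (5.83 CPM) and for Tuba3b (123.7 CPM), and low for Grhl1 (7.42 CPM). CAST #F1 was low for D230025D16Rik (59.2 CPM) and high for Pank4 (37.1 CPM) and Psph (24.5 CPM). CAST #M2 was high for Fgf17 (4.24 CPM) and low for H2-K1 (8.22 CPM), and #M8 was high for Klf11 (120.6 CPM).

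In 3 genes, each of which lost its call without some single line, the strain-by-sex term passed the edgeR test. Taken as the female minus the male difference between CASP and CAST on the log2 scale, it was -12.61 for Gm2999 (edgeR adjusted p = 0.0046), where the female CASP lines had no count so that the size is not bounded, -2.16 for Erbb3 (edgeR adjusted p = 0.037) and 3.94 for Ppp1r26 (edgeR adjusted p = 0.034).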

How the results depend on the processing

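The count of 6390 called genes was 7311 by DESeq2, 6792 by limma-trend on the normalized values, 4923 in the male lines only and 4639 to 6449 with 1 line left out. It was 815 in the female lines only (423 higher, 392 lower) and 3030 with a fold change of at least 1 also required (1283 and 1747), and 2144 genes were lower at a mean of at least 5 CPM. With pseudogene counts added, an alternative chosen after seeing the data like the lists, chromosomes, windows and stretches without CAST #F2, it was 5788. The strain-by-sex test called 24 genes by DESeq2 and 0 to 3 with 1 line left out. Beside the added pseudogene counts, single genes were checked under RLE scaling, library size alone, DESeq2 and the 8 CASP and CAST lines only. They were also checked without CASP #F4 and #F6 and with 1 line left out. Of 193 genes named, 184 were called, 172 of them in the same direction under each of these settings other than the added pseudogene counts. Limma-trend, the other filters and the fits on male or female lines only were not checked gene by gene. The direction turned for 3 genes that were not called. Hspa5 (0.00) went to -0.052 with library size alone, to -0.088 without CASP #F4 and #F6, and to between -0.142 and 0.097 with 1 line left out. Gm2999 (-1.001) reached 1.19 without #F4 and #F6, where it was called (edgeR adjusted p = 0.0037), and -2.08 to 0.067 with 1 line left out, and Pank4 reached 0.030 without #F4 and #F6 and -0.20 to 0.018 with 1 line left out. Among called genes, with pseudogene counts Nutf2-ps1 turned from -0.77 to 0.412 (edgeR adjusted p = 0.036) and Rps10 from -0.51 to 0.043, no longer called. The cause was not tested. No paired analysis was possible because the line numbers differ between the strains and mark no shared animal or batch. Genes under 1 CPM rest on few counts, and the lines sample 4 reconstructed embryos a strain.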

Other observations

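Adhesion genes of the ESC surface numbered 4 higher and 4 lower of 37, or 6 and 2 without CASP #F4 and #F6. Cdh1, the E-cadherin that holds ESC colonies together, stood at 627, 682, 844 and 629 CPM in CASP and at 492, 441, 418 and 444 CPM in CAST (fold change 0.63, SE 0.11, edgeR adjusted p = 0.0017). Its highest line was #F4, in which chromosome 8, where Cdh1 lies, was raised. Icam1, a ligand of leukocyte integrins, was at 150 to 203 against 94.2 to 114 CPM, and Itga3, an integrin subunit that binds laminin, at 1.85 to 3.01 against 6.99 to 8.45 CPM. Pecam1, described above, was the adhesion gene of largest difference.

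Of 18 tubulins, the subunits of microtubules, 4 were lower and 1 higher. Tuba3a, like Tuba3b an alpha-tubulin known from testis, stood at 14.1, 16.8, 12.9 and 10.1 CPM in CASP against 56.1, 56.0, 44.1 and 43.7 CPM in CAST and 106 and 101 CPM in B6D2F1 (fold change -1.90, SE 0.11, edgeR adjusted p = 1.6e-06). In serine, threonine and one-carbon metabolism, 6 of 24 genes were higher and 5 lower, or 7 and 3 without CASP #F4 and #F6 and 6 and 3 without CAST #F2. Psph, which makes the last step to serine, was at 32.2 to 53.6 against 18.8 to 24.5 CPM, and Gldc, of the glycine cleavage system, at 182 to 261 against 138 to 160 CPM. Proteasome subunits numbered 6 higher and 2 lower of 35, 22.9% called against 31.6% of all genes, and 3 each with scaling by library size alone.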
